A study of Mus musculus with 4 samples.

Results

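The genes described here are the mouse core and linker histone genes of the Hist1, Hist2, Hist3 and Hist4 clusters, most of which are expressed when DNA is replicated. They were taken from the RNA tables by gene symbol (names that begin with Hist1h, Hist2h, Hist3h or Hist4h), which gave 56 of the 13792 genes listed. The tables hold 2 RNA libraries of B cells in culture. In the Ascl2 library (RVKM-Ascl2), naive B cells from the inbred mouse strain C57BL/6 had been infected with a retrovirus that carries Ascl2, a basic helix-loop-helix transcription factor. In the empty-vector library (RVKM-Empty), cells of the same kind had received the virus without an insert. Both were cultured with antibodies to IgM and CD40, which drive B cells into division. Each group was 1 library, so no value has a replicate error and no difference could be tested. The share of cells that carried the virus, the number of mice and the time in culture were not stated. The series also has 2 chromatin samples from germinal centre B cells (an input and an Ascl2 precipitation), not analysed here.

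A cell that copies its DNA must make as much histone protein as new DNA needs. H2A, H2B, H3 and H4 form the core of the nucleosome, and H1 binds the linker DNA between nucleosomes. Most of the genes have no introns, and most of their messages end in a conserved stem-loop in place of a poly(A) tail, so they are made in S phase and degraded when replication stops. Because most of these messages lack a poly(A) tail, a library made from poly(A) RNA captures few of them. Whether these libraries were made that way was not stated.

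The inserted gene went with the labels, at 29.4 in the Ascl2 library and 0.0809 in the empty-vector library. All values are the authors' abundances, scaled for depth and apparently for gene length, with the unit's name not given. The values summed to 763932 in the Ascl2 library and 750692 in the empty-vector library. The depth behind these values is unknown, which leaves them without counting intervals. The B cell markers Cd79a, Cd79b, Ms4a1 and Pax5 were all present, summing to 1542 in the Ascl2 library and 1776 in the empty-vector library. The 5 genes chosen as signs of division (Mki67, Pcna, Top2a, Ccnb1 and Ccne1) summed to 614 in the Ascl2 library and 580 in the empty-vector library, and 3 of the 5 were lower with Ascl2. Of the other markers, 4 plasma cell genes summed to 585 with Ascl2 and 356 with the empty vector. Among 5 myeloid markers, 4 had a row and summed to 43.1 with Ascl2 and 38.7 with the empty vector. The 2 globin genes of 4 erythroid markers summed to 1.75 with Ascl2 and 2.03 with the empty vector, while no T cell marker was among the rows analysed here. The part of these differences in the histone values was not tested. In bulk RNA, fewer cells in S phase and less histone RNA per cell cannot be told apart.

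Most histone genes were lower in the Ascl2 library. Ratios are log2 ratios of Ascl2 over empty vector, with 1 added to both values, so differences of low genes are understated. Of the 56 members, 53 reached 1 in either library and were kept. Among these, 42 had a ratio below 0, where 51.6% of the 12283 genes kept in the whole table did. At least 2-fold lower were 8 members, or 15.1% of those kept, where 0.716% of all kept genes passed that limit. None was at least 2-fold higher, a limit passed by 1.53% of all kept genes. The members' median log2 ratio was −0.36, and that of all kept genes was −0.01. At 1.5-fold, 21 members were lower and 4 higher, where 4.31% of all kept genes were lower and 5.01% higher. Hist1h3b was kept through its Ascl2 value and Hist1h4j through its empty-vector value. Without any filter, 43 of the 56 members had a ratio below 0.

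**Figure D1:**
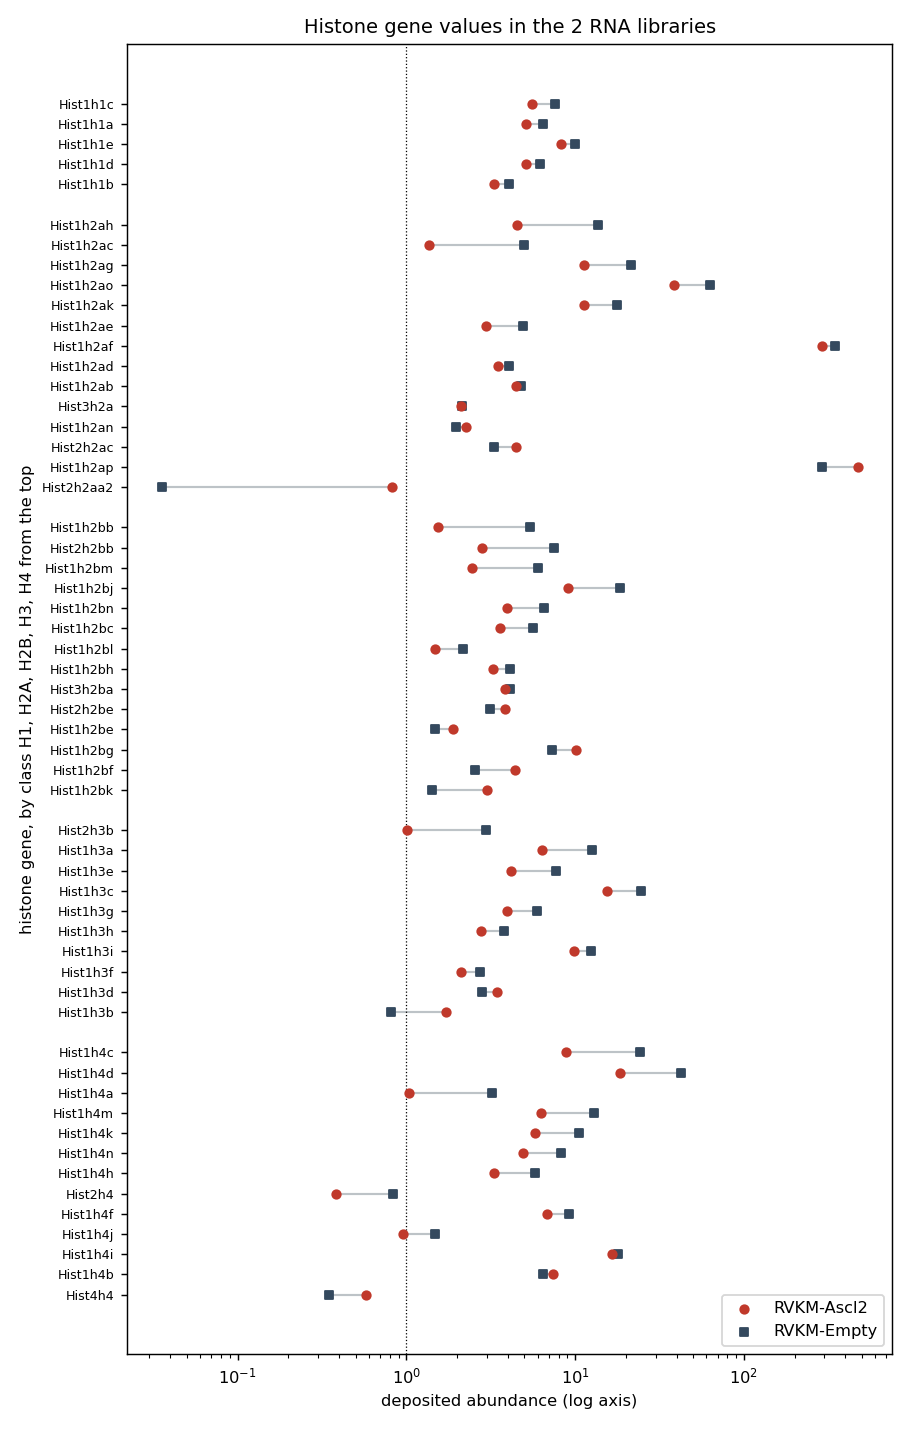
Abundance of each of the 56 histone genes (log axis) in the Ascl2 library (red circles) and in the empty-vector library (dark squares), 1 library each, grouped by class and ordered by log2 ratio. Most red circles lie left of their squares, Hist1h2af and Hist1h2ap stand far to the right of all others, and the dotted line marks the value of 1 used as the filter.

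Short genes in general had lower ratios in these libraries, which bears on every count above. The members are short, with a median genomic span of 490 bases in the 55 with a single RefSeq match, and 52 of the 55 spanned up to 1000 bases. Other kept genes of up to 1000 bases, without immunoglobulin variable, diversity and joining segments, numbered 367. Their median log2 ratio was −0.19, and 4.90% of them were at least 2-fold lower. The 49 kept members of that span had a median of −0.38, and 16.3% were at least 2-fold lower. With the trend of the other genes over span taken away, the median of the members was −0.19, and 4 of 52 were at least 2-fold lower, where 0.418% of all kept genes with a span were. The calls lost there were Hist2h2bb (−0.96), Hist1h2bm (−0.85), Hist1h4d (−0.97) and Hist1h4a (−0.88). That trend left out the histone genes and the variable segments, which were higher with Ascl2 (median 0.87 over 222). With both kept in the trend, the median was −0.61 and 16 were at least 2-fold lower, against 0.802% of all. With the variable segments alone left out, the median was −0.14 and 4 were lower (0.418% of all). With the histone genes alone left out, it was −0.64 and 16 were lower (0.828% of all). The part of gene span in the histone values was not tested further.

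Levels differed widely among members. Read as length-scaled abundances, they had medians of 3.93 in the Ascl2 library and 5.85 in the empty-vector library, below the medians over all listed genes of 10.2 in each. Hist1h2af and Hist1h2ap, both H2A genes, stood apart from the rest. Hist1h2af was 291 in the Ascl2 library and 349 in the empty-vector library (log2 ratio −0.26). Hist1h2ap was 473 with Ascl2 and 292 with the empty vector (0.69). Hist1h2af was thus lower and Hist1h2ap higher with Ascl2, and neither reached 2-fold. The next gene in the order was Hist1h2ao, also an H2A gene, at 38.6 with Ascl2 and 63.4 with the empty vector (−0.70). RefSeq gives the name Hist1h2ap to both of a pair of neighbouring H2A genes, one of which is also called Hist1h2ao. How reads were divided between such copies is therefore uncertain. Summed, Hist1h2ao and Hist1h2ap were 511 with Ascl2 and 355 with the empty vector.

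These 2 genes set the histone total. All 56 members summed to 1066 in the Ascl2 library and 1113 in the empty-vector library, or 0.140% of the Ascl2 total and 0.148% of the empty-vector total, a log2 ratio of sums of −0.06. Hist1h2af and Hist1h2ap made up 71.7% of that sum with Ascl2 and 57.6% with the empty vector. The other 54 members summed to 302 with Ascl2 and 472 with the empty vector, a log2 ratio of −0.65. They include Hist1h2ao, whose reads may not be separable from those of Hist1h2ap. Without Hist1h2ap alone the log2 ratio of the sums was −0.47. Histone genes of 1 class are close copies of one another, so values of single members depend on how reads were assigned. The classes are given first as sums, which also depend on reads that were dropped or given to copies not listed.

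Among the classes, H4 differed most by sums and H1 least among those that were lower. The 13 H4 genes summed to 81.4 in the Ascl2 library and 143 in the empty-vector library, a log2 ratio of −0.82. The 10 H3 genes summed to 50.8 with Ascl2 and 76.5 with the empty vector (−0.59). The 14 H2B genes summed to 55.1 with Ascl2 and 75.8 with the empty vector (−0.46), and the 5 H1 genes to 27.3 with Ascl2 and 34.3 with the empty vector (−0.33). H2A went the other way as a sum, with 851 with Ascl2 and 783 with the empty vector over 14 genes (0.12). Without Hist1h2af and Hist1h2ap, the other 12 H2A genes summed to 87.5 with Ascl2 and 143 with the empty vector (−0.70). That sum includes Hist1h2ao, at 38.6 with Ascl2 and 63.4 with the empty vector, whose reads may not be separable from those of Hist1h2ap. Whether the classes differ from one another could not be tested with 1 library a group.

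**Figure D2:**
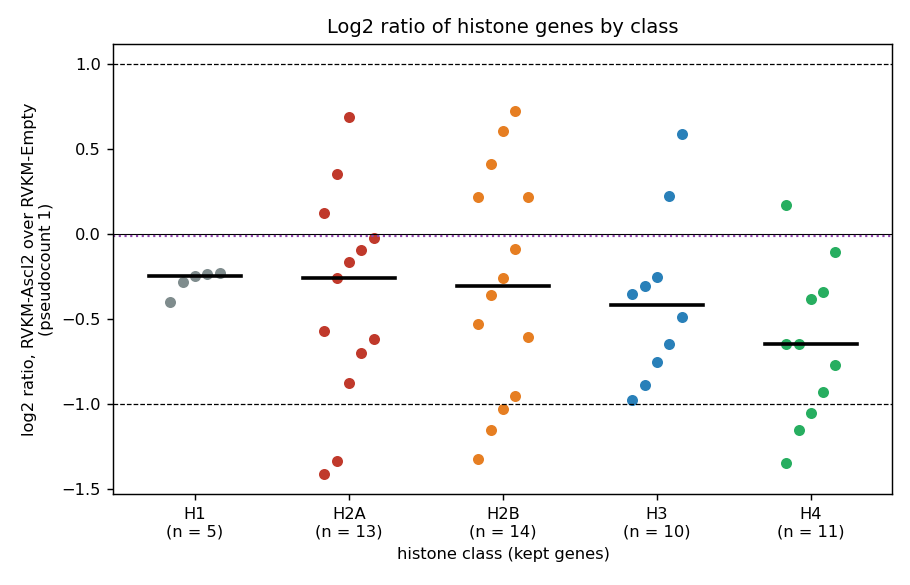
Log2 ratio of RVKM-Ascl2 over RVKM-Empty (pseudocount 1) for the 53 kept histone genes by class, 1 point per gene. Thick bars are class medians (H1 −0.25, H2A −0.26, H2B −0.31, H3 −0.42, H4 −0.65), dashed lines mark 2-fold, and the dotted line is the median of all kept genes, −0.01.

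H4, with H3, forms the tetramer at the centre of the nucleosome. Of 11 kept H4 genes, 10 had a ratio below 0 and 3 were at least 2-fold lower. The 5 that reached 10 in either library are shown by the 100 bases before their RefSeq start (GRCm38.p6, the assembly also called mm10), each 5′ to 3′ on the gene's own strand, because H4 was the class with the lowest ratios. Capitals mark GGTCCG, part of the H4-specific promoter element bound by the zinc finger factor HINFP.
Hist1h4c, chr13:23698459-23698558, minus strand: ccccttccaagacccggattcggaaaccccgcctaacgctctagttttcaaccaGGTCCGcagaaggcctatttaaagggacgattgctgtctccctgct
Hist1h4d, chr13:23581468-23581567, plus strand: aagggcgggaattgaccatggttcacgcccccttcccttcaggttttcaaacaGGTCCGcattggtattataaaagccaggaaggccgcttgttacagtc
Hist1h4m, chr13:21811646-21811745, plus strand: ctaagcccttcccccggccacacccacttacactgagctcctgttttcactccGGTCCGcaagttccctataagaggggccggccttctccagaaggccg
Hist1h4k, chr13:21750554-21750653, minus strand: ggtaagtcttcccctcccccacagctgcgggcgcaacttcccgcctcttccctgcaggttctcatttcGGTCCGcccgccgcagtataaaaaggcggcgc
Hist1h4i, chr13:22041363-22041462, minus strand: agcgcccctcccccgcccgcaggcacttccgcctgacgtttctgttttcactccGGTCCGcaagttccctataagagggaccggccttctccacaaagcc

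All 5 hold the element close to the start, and its part in their values was not tested. Hist1h4d was 18.4 in the Ascl2 library and 42.2 in the empty-vector library (log2 ratio −1.16). Hist1h4c (chromosome 13, 23698084 to 23698458) was 8.85 with Ascl2 and 24.1 with the empty vector (−1.35). Both were past 2-fold. Hist1h4m was 6.31 with Ascl2 and 12.9 with the empty vector (−0.93), and Hist1h4k was 5.76 with Ascl2 and 10.5 with the empty vector (−0.77). Hist1h4i was close in both libraries, at 16.7 with Ascl2 and 18.0 with the empty vector (−0.11). The printed stretch of Hist1h4i shares a run of 38 identical bases with that of Hist1h4m, the element and TATAA included. The third H4 gene past 2-fold, Hist1h4a, was low, at 1.04 with Ascl2 and 3.22 with the empty vector (−1.05). Hist1h4b was the 1 kept H4 gene with a higher value with Ascl2, 7.41 against 6.48 with the empty vector (0.17). The remaining kept H4 genes, Hist1h4f, Hist1h4h, Hist1h4j and Hist1h4n, had ratios between −0.65 and −0.34. Hist2h4 (0.381 with Ascl2 and 0.831 with the empty vector) and Hist4h4 (0.573 with Ascl2 and 0.346 with the empty vector) stayed under 1 in both.

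H3 carries many of the histone tail modifications that mark active and silent chromatin. Of 10 H3 genes, 8 had a ratio below 0 and none reached 2-fold. Hist1h3c was 15.4 in the Ascl2 library and 24.7 in the empty-vector library (−0.65), and Hist1h3a was 6.34 with Ascl2 and 12.6 with the empty vector (−0.89). Hist1h3i was 9.90 with Ascl2 and 12.5 with the empty vector (−0.31). The lowest ratio was that of Hist2h3b, 1.01 with Ascl2 and 2.95 with the empty vector (−0.98). Hist1h3b and Hist1h3d had higher values with Ascl2, at 1.73 and 3.45, against 0.813 and 2.81 with the empty vector. The 4 genes for H3.1 (Hist1h3a, g, h and i) and the 6 for H3.2, which differ in the protein by a single residue, had similar sums. The H3.1 genes gave 22.9 with Ascl2 and 34.8 with the empty vector (log2 ratio of sums −0.60), and the H3.2 genes gave 27.8 with Ascl2 and 41.6 with the empty vector (−0.58).

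H2A and H2B pair as dimers on either side of the H3 and H4 tetramer. Of 13 kept H2A genes, 10 had a ratio below 0 and 2 were at least 2-fold lower. Hist1h2ah was 4.53 in the Ascl2 library and 13.7 in the empty-vector library (−1.41), the lowest ratio of the kept members with a pseudocount of 1. Hist1h2ac was 1.37 with Ascl2 and 4.97 with the empty vector (−1.34). The order depends on the pseudocount, since the lowest ratio was that of Hist1h2ac with 0.1 (−1.79) and that of Hist1h4c with 5 (−1.07). Hist1h2ag, at 11.2 with Ascl2 and 21.5 with the empty vector (−0.88), and Hist1h2ak, at 11.2 with Ascl2 and 17.7 with the empty vector (−0.62), were lower by less than 2-fold. Besides Hist1h2ap, Hist1h2an and Hist2h2ac had higher values with Ascl2, with ratios of 0.13 and 0.35. Hist2h2aa2 was under 1 in both libraries, at 0.821 with Ascl2 and 0.0354 with the empty vector.

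H2B genes were the most mixed class, with 9 of 14 ratios below 0 and 5 above. Of the 3 past 2-fold, Hist1h2bb was 1.55 with Ascl2 and 5.38 with the empty vector (−1.32). Hist2h2bb (chromosome 3, 96269700 to 96270192) was 2.80 with Ascl2 and 7.47 with the empty vector (−1.16), and Hist1h2bm was 2.46 with Ascl2 and 6.07 with the empty vector (−1.03). The 2 H2B genes that reached 10 in either library went opposite ways. Hist1h2bj was 9.05 with Ascl2 and 18.5 with the empty vector (−0.96), while Hist1h2bg was 10.1 with Ascl2 and 7.30 with the empty vector (0.41). With a pseudocount of 1 the highest ratio of the kept members was that of Hist1h2bk, 3.01 with Ascl2 and 1.42 with the empty vector (0.73), followed within the class by Hist1h2bf, 4.42 with Ascl2 and 2.56 with the empty vector (0.61).

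H1 genes were the most even class. All 5 (Hist1h1a to Hist1h1e) had a ratio between −0.40 and −0.23, and none reached 1.5-fold. Hist1h1e, the most abundant, was 8.22 in the Ascl2 library and 9.95 in the empty-vector library. Hist1h1c was 5.54 with Ascl2 and 7.64 with the empty vector (−0.40). Hist1h1c is also among 4 members known, in part from human cells, to give polyadenylated messages. The others were Hist1h2ac, Hist1h2bc (3.59 with Ascl2 and 5.61 with the empty vector) and Hist2h2be (3.82 with Ascl2 and 3.15 with the empty vector), and 3 of the 4 had a ratio below 0.

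By cluster, most of the measured histone RNA came from Hist1, which lies on mouse chromosome 13. Its 47 genes had 38 ratios below 0, 7 of them at least 2-fold lower, and a median of −0.38. They held 98.1% of the histone sum with Ascl2 and 97.8% with the empty vector. Of 6 Hist2 genes on chromosome 3, 4 were kept, with 2 ratios below 0 and 1 gene (Hist2h2bb) past 2-fold. The 2 Hist3 genes on chromosome 11 were nearly the same in both libraries. Hist3h2ba was 3.83 with Ascl2 and 4.14 with the empty vector, and Hist3h2a was 2.10 with Ascl2 and 2.15 with the empty vector. Hist4h4 on chromosome 6 was the only Hist4 gene.

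Within Hist1 the lower ratios were spread over the whole cluster. The genes fall into 3 blocks, at 21715711 to 21832197, 22035122 to 22043658 and 23531044 to 23764412 on chromosome 13. The first block had 12 of 13 ratios below 0 (median −0.61), the second 4 of 5 (−0.88) and the third 22 of 28 (−0.33). Hist1h2ap, which was higher with Ascl2 (0.69), has no unique RefSeq match and is in none of these counts. Members past 2-fold lower occurred in each, 1 in the first, 1 in the second and 5 in the third.

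**Figure D3:**
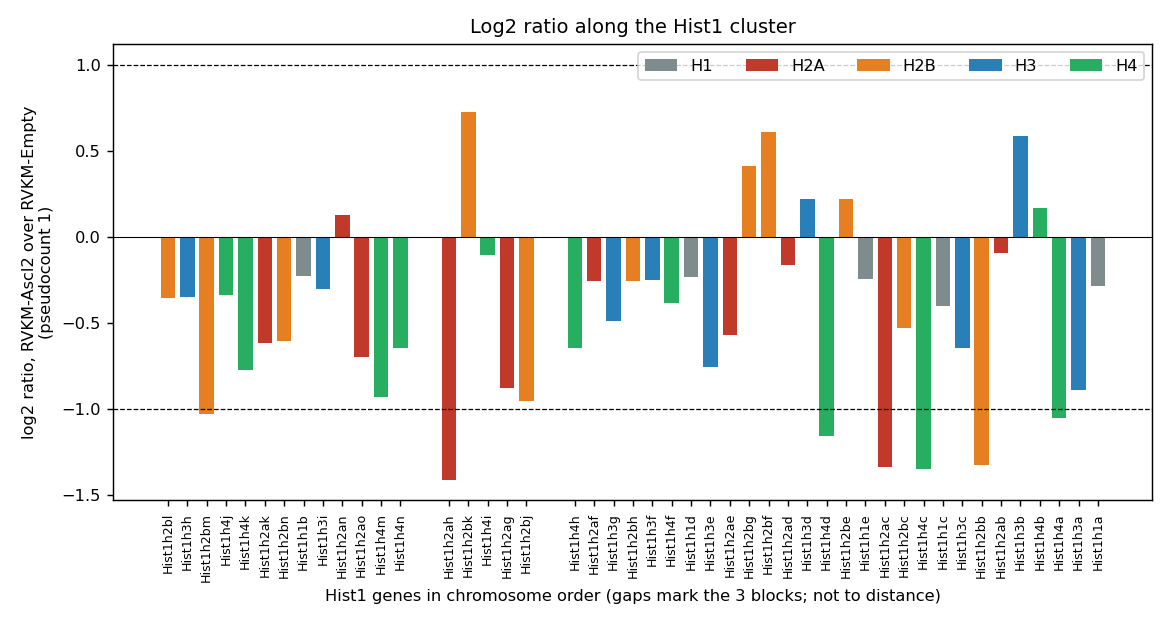
Log2 ratio of RVKM-Ascl2 over RVKM-Empty (pseudocount 1) for 46 Hist1 genes in chromosome order, coloured by class, with gaps between the 3 blocks and dashed lines at 2-fold. Bars below 0 occur in all blocks, and single higher genes (Hist1h2bk 0.73, Hist1h2bf 0.61, Hist1h3b 0.59) stand among them. Hist1h2ap is not drawn because its RefSeq match is not unique.

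Many H2A and H2B genes are transcribed away from each other out of a shared promoter region, so both genes of a pair lie on the same regulatory DNA. By RefSeq coordinates, 7 pairs of adjacent H2A and H2B members had 163 to 248 bases between the genes. In 5 pairs the promoter table gives both starts, reading away from each other. In the other two the strand of the H2B gene, Hist1h2bc or Hist2h2be, was not at hand. The ratios had the same sign in 4 pairs and opposite signs in 3. Hist1h2ak and Hist1h2bn were nearly equal (−0.62 and −0.61), as were Hist1h2ag and Hist1h2bj (−0.88 and −0.96). Hist1h2ac and Hist1h2bc were both lower with Ascl2 (−1.34 and −0.53), and Hist2h2ac and Hist2h2be both higher (0.35 and 0.22). Hist1h2ae and Hist1h2bg had opposite signs (−0.57 and 0.41), and so did Hist1h2ad and Hist1h2bf (−0.17 and 0.61). The largest gap was between Hist1h2ah (−1.41) and Hist1h2bk (0.73), a difference of 2.14 on the log2 scale. In each of the 3 pairs of opposite sign the H2B gene was the higher one with Ascl2.

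The 177 bases between the starts of Hist1h2ah and Hist1h2bk are shown because the pair's values differed most. They are printed on the plus strand, on which Hist1h2bk is read, and Hist1h2ah is read leftward from the other end. Capitals mark the CCAAT box on either strand (CCAAT or ATTGG) and the octamer ATTTGCAT, a site of POU factors.
Hist1h2ah to Hist1h2bk, chr13:22035644-22035820, plus strand: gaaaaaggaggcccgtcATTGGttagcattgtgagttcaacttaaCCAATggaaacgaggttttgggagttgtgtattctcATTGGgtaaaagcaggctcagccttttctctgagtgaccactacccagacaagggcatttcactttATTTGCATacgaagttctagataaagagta

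**Figure D4:**
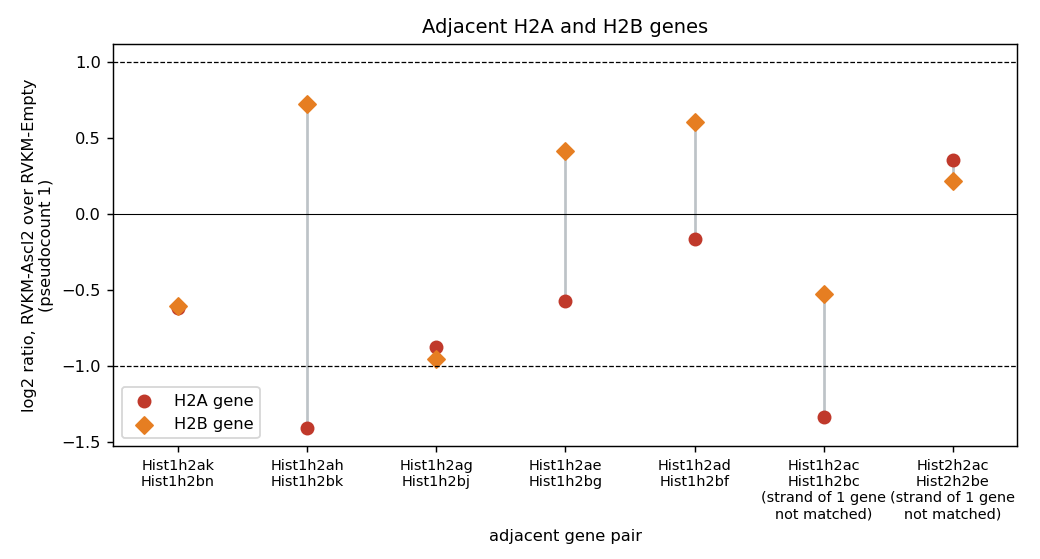
Log2 ratio of RVKM-Ascl2 over RVKM-Empty (pseudocount 1) of the H2A gene (circle) and the H2B gene (diamond) in 7 adjacent pairs, with a grey line joining each pair and dashed lines at 2-fold. In 4 pairs both points lie on the same side of 0, and in 3 the H2B gene lies above 0 and the H2A gene below it. For 2 pairs the strand of the H2B gene was not matched.

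The promoter windows shared sequence features by class. Windows of 250 bases before to 50 after the RefSeq start were at hand for 50 of the 56 members (51 windows), and each motif was searched as written on both strands, none of the motifs being contained in another. CCAAT was in all 39 windows of H1, H2A, H2B and H3 genes and in 3 of 12 H4 windows, where 37.4% of all 32851 windows in the table held it. GGTCCG was in 11 of 12 H4 windows and in 2 of the other 39, against 8.25% of all windows. It lay wholly before the start in 9 H4 genes, 18 to 47 bases upstream. The octamer ATTTGCAT was in 6 of 13 H2A and 6 of 13 H2B windows and in none of the other classes, against 1.74% of all windows. TTTCGCG, a sequence of the E2F type, was in 6 H2A and 4 H2B windows, against 0.849% of all. Windows of neighbouring genes overlap, so these counts are not of separate sites: 4 of the 12 octamer windows and 6 of the 10 TTTCGCG windows held a site that another window also held. AAACACA, known from H1 promoters, was in 4 of 5 H1 windows, against 7.18%. The TATA core TATAA was in 41 of the 51, against 24.9%. Apart from GGTCCG, motifs were not checked for lying before the start, and the windows reach into transcribed sequence. Neither TATAA nor TTTCGCG is in the 177 bases between the starts of Hist1h2ah and Hist1h2bk, though the windows of both hold them. CAGCTG, an E-box of the kind bound by factors related to Ascl2, was in 4 of the 51 windows, those of Hist2h2bb, Hist1h2bl, Hist1h4k and Hist1h4f, against 16.3% of all windows. A match in letters does not show that a factor binds.

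The histone variants, many of which are also made outside S phase, come from separate genes and were also mostly lower. Of 10 measured, 8 had a ratio below 0, where 51.6% of all kept genes did. At least 2-fold lower was 1, where 0.716% of all kept genes were, and the median was −0.22. The part of gene span in these values was not tested. H2afj, an H2A variant, was 37.9 in the Ascl2 library and 87.9 in the empty-vector library (−1.19). H2afx, whose product is phosphorylated at DNA breaks, was 106 with Ascl2 and 165 with the empty vector (−0.63), and the linker histone gene H1fx was 0.993 with Ascl2 and 2.45 with the empty vector (−0.79). The macroH2A gene H2afy was 130 with Ascl2 and 163 with the empty vector (−0.32), and H1f0 was 19.8 with Ascl2 and 23.6 with the empty vector. The H3.3 genes differed little, with H3f3a at 673 with Ascl2 and 699 with the empty vector and H3f3b at 259 with Ascl2 and 297 with the empty vector. H2afz, H2afv and the centromeric Cenpa had ratios of 0.00, 0.10 and −0.03.

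Genes that transcribe, process and degrade histone messages stayed closer together in the 2 libraries. Of 39 measured, 23 had a ratio below 0 (51.6% over all kept genes) and the median was −0.07. None reached 2-fold, where 0.716% of all kept genes were that much lower and 1.53% higher. Slbp, whose product binds the stem-loop, was 75.4 with Ascl2 and 68.3 with the empty vector. Npat, the coactivator of histone genes, was 12.0 with Ascl2 and 10.4 with the empty vector, and Casp8ap2, a factor in 3′ end cutting, was 18.7 with Ascl2 and 14.3 with the empty vector. Hinfp, which encodes the H4 promoter factor, was 15.9 with Ascl2 and 9.85 with the empty vector (0.64). Its link to the H4 values was not tested. Of the list, 3 genes were at least 1.5-fold lower and Hinfp alone was that much higher. Over all kept genes, 4.31% were that much lower and 5.01% higher, so these few genes do not set the list apart. Lsm10, a part of the U7 particle that cuts histone messages, was 11.2 with Ascl2 and 20.2 with the empty vector (−0.80), and its partner Lsm11 was 4.87 with Ascl2 and 5.17 with the empty vector. Lsm1 and Lsm4, of the complex that acts in messenger RNA decay, were 6.98 and 88.6 with Ascl2, against 12.4 and 149 with the empty vector.

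Genes that deliver histones to DNA and those that copy DNA showed no 2-fold difference. Over all kept genes, 0.716% were at least 2-fold lower and 1.53% higher, so none in lists of this size is near those shares. Of 29 genes for chaperones and acetylation, 14 had a ratio below 0 (51.6% over all kept genes) and the median was 0.01. Ubn2 and Ipo4 were at least 1.5-fold higher, at 16.6 and 22.4 with Ascl2, against 9.92 and 13.7 with the empty vector. Of all kept genes, 5.01% were that much higher. Nasp, a chaperone of soluble H3 and H4, was 114 with Ascl2 and 90.6 with the empty vector, and Chaf1b, of the assembly factor CAF-1, was 23.0 with Ascl2 and 30.1 with the empty vector. Of 48 DNA synthesis genes, 30 had a ratio below 0 (51.6% over all kept genes), with a median of −0.08. Pold2, a polymerase delta subunit, was the 1 past 1.5-fold, at 33.4 with Ascl2 and 51.7 with the empty vector. Of all kept genes, 4.31% were that much lower. Pcna, the sliding clamp of replication, was 201 with Ascl2 and 213 with the empty vector.

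**Figure D5:**
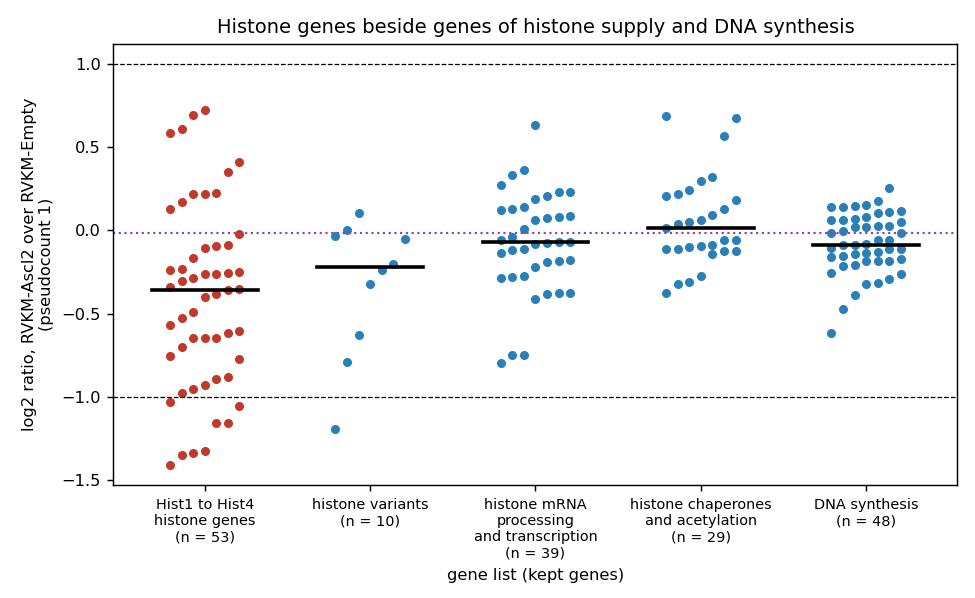
Log2 ratio of RVKM-Ascl2 over RVKM-Empty (pseudocount 1) for kept genes of 5 lists, 1 point per gene, with bars at the medians (−0.36, −0.22, −0.07, 0.01 and −0.08 from left to right), dashed lines at 2-fold and a dotted line at the median of all kept genes. The histone genes have the widest spread, from −1.41 to 0.73, and the DNA synthesis genes the narrowest. The lists also differ in abundance and were not matched for it.

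The 16 members that reached 10 in either library had 14 ratios below 0 and a median of −0.74, and 3 of them were at least 2-fold lower. The 37 kept members under 10 had 28 ratios below 0 and a median of −0.28, and 5 of them were at least 2-fold lower. This split uses the same values that set the ratios. Hist1h2ah, Hist1h2bj, Hist1h3a, Hist1h3i, Hist1h4c, Hist1h4m and Hist1h4k reached 10 only with the empty vector, and Hist1h2bg only with Ascl2. The lower median of the 16 can therefore come in part from the split.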

How the data were processed

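RNA was measured in 1 library of RVKM-Ascl2 and 1 of RVKM-Empty B cells, grouped by sample title. The files hold 1 deposited signal for each gene, which the authors scaled for depth. No source used here gives the unit's name, the quantifier, the annotation, the strand setting or the handling of reads that match several copies. Per the submitters' processing notes, the build was mm10. The files were joined on Ensembl identifiers. With no counts and 1 library a group, no test was run. Log2 ratios used a pseudocount of 1, genes that reached 1 in either library were kept, and 2-fold means 1 or more from 0 on that scale. Sums used all listed members and no pseudocount. RefSeq symbols, coordinates, spans and promoters (GRCm38.p6) were matched by symbol or synonym. RefSeq holds 70 genes with such a name, and those beyond the 56 were not analysed here. No promoter was matched for Hist2h4, Hist1h3a, Hist1h2bc, Hist1h3f, Hist2h2be and Hist1h2ap. Members and lists were chosen with earlier results of these data known, and motifs and printed promoters after the values were seen. Values are given for members of at least 10 or past 2-fold, with others as examples. Other lists are named by their largest ratios and known parts. The B cell list omits 1 marker, not reported here. Steps used Python 3.11.15 with pandas 2.3.3 and were tested on simulated data. Alternatives covered the pseudocount, filter, threshold, scaling, gene span and the most abundant members.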

Additional observations from a re-analysis of the deposited data

How the results depend on the processing

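With 1 library a group, no library could be left out, and depth is unknown, so the precision of low values cannot be stated. No paired analysis was possible because each group has 1 library and no test was run. The 3 rescalings of the Ascl2 library left 7 or 8 members at least 2-fold lower and none higher, with Hist1h2bm at −0.999 when upper quartiles were matched. Over all kept genes, these rescalings gave 0.641% to 0.767% lower, and 174 to 208 genes higher. With a pseudocount of 0.1, 11 members were at least 2-fold lower (1.79% of all kept genes) and 1 higher (370 of all 12283 kept genes). With a pseudocount of 5, 2 were lower (0.163% of all) and the median was −0.26. The calls lost there were Hist1h2ah (−0.97), Hist1h2ac (−0.65), Hist1h2bb (−0.66), Hist2h2bb (−0.68), Hist1h2bm (−0.57) and Hist1h4a (−0.45). With a filter of 5 the median over 31 members was −0.65. Some members, such as Hist1h2bb, Hist2h2bb and Hist1h2bm, passed that filter only through the empty vector, and no member passed it only through Ascl2. That median can therefore come in part from the filter. At 1.5-fold, 21 were lower and 4 higher, and at 3-fold 0 were lower, with counts set by the threshold and the pseudocount of 1. Without a pseudocount, Hist1h2ac (0.275 of the empty-vector value), Hist1h2bb (0.288), Hist1h4a (0.322) and Hist1h2ah (0.330) were past 3-fold lower. No kept member was past 3-fold higher. Removing the trend with span gave 16 lower (0.802% of all) and a median of −0.61. In 3 alternatives added after the data were seen, variable segments, histone genes or both were left out of that trend. Without both, 4 were lower (0.418% of all) and the median was −0.19. Without the segments alone, 4 were lower (0.418%) and the median was −0.14, and without the histone genes alone, 16 were lower (0.828%) and the median was −0.64. The sum's log2 ratio was −0.47 without Hist1h2ap and, in an added alternative, −0.65 without Hist1h2af and Hist1h2ap. The 8 members past 2-fold, with Hist1h2af and Hist1h2ap, were followed in 104 further values. None changed sign, and 15 were no longer past 2-fold, 6 of them with the pseudocount of 5. A change of pseudocount or filter cannot change a sign, and the rescalings were too small to do so here. Hist1h2af and Hist1h2ap were not past 2-fold in the main setting, so they could not be lost. The cause was not tested.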
